A study of Mus musculus with 9 samples.

Results

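The genes described here encode the proteins of the cytosolic ribosome. A gene was taken when its symbol was Rpl, Rps or Rplp followed by a number and, at most, an a or an x, and when at least 1 probe set named that gene and no other. This gave 56 genes of the 22180 named genes on the array, 21 for the small subunit and 35 for the large subunit, and the large subunit count includes the stalk genes Rplp0, Rplp1 and Rplp2. They were covered by 95 probe sets, and for each gene the probe set with the highest mean over all arrays was used. A further 12 ribosomal protein genes, Rpl10, Rpl12, Rpl13a, Rpl23, Rpl24, Rpl31, Rpl35a, Rpl36, Rpl36a, Rps15a, Rps2 and Rps21, lay only on probe sets shared with other symbols and were not analysed here.

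The RNA came from LT-HSC, the long-term stem cells of the marrow, which renew themselves and give rise to all blood lineages. They were sorted from C57BL/6 marrow by the surface profile Lin-Sca-1+c-kit+CD34-CD135-, and 9 Affymetrix arrays held 3 biological replicates per genotype. The Jak2VF EZH2-/- group (MxCre Jak2VF/+ EZH2-/-) carried activated JAK2, the tyrosine kinase behind cytokine receptors of blood cells, and lacked EZH2, the enzyme that places the repressive mark H3K27me3. The Jak2VF group (MxCre Jak2VF/+) carried activated JAK2 with EZH2, and the WT group was the control. At 4 weeks of age every mouse, WT included, was given pI-pC (300 µg each time, 5 times), and marrow was taken 12 weeks later. The agent pI-pC induces interferon, which switches on the Mx promoter and with it the Cre recombinase. MxCre acts in many interferon-responsive cells and not only in stem cells, the labels do not say whether WT mice carried it, and no group lacked EZH2 without activated JAK2.

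Ribosomes are made from ribosomal RNA and a large set of proteins in equal numbers, and the genes of the family are expressed together at high levels in dividing cells. Most of their messages start with a C followed by a run of pyrimidines, the 5′ terminal oligopyrimidine (TOP) motif, through which mTOR signalling controls their translation. Blood stem cells are known for a low rate of protein synthesis, and loss of 1 copy of certain ribosomal protein genes causes the human red cell disorders Diamond-Blackfan anaemia and the 5q- syndrome. Free ribosomal proteins such as Rpl5 and Rpl11 bind MDM2 and stabilise p53.

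The 9 arrays had median log2 signals between 5.51 and 5.67, and correlated with each other between 0.898 and 0.968. Ezh2 itself had log2 signals of 8.47, 8.08 and 8.42 in Jak2VF EZH2-/- arrays, 8.87, 9.09 and 8.78 in Jak2VF arrays and 8.48, 8.81 and 8.69 in WT arrays. The Jak2VF EZH2-/- values lay below all others, but the difference of -0.59 from Jak2VF missed the threshold (limma adjusted p = 0.411 over the whole array), and whether its probes lie in the deleted part was not given. Of the 8 stem cell markers checked, 6 were measured, among them Kit, the sorting marker, at 9.43 to 10.18 on all 9 arrays. Their mean relative to WT lay between -0.25 and 0.03 on Jak2VF EZH2-/- arrays and between -0.35 and -0.31 on Jak2VF arrays, with 5 of 6 negative between Jak2VF and WT and none passing. The mean of 7 megakaryocyte and platelet markers lay between -0.44 and -0.08 on Jak2VF EZH2-/- arrays, 0.16 and 0.79 on Jak2VF arrays and -0.09 and 0.16 on WT arrays. All 7 were negative between Jak2VF EZH2-/- and Jak2VF, and 1 passed, Itga2b (-1.45, limma adjusted p = 0.0441). Jak2VF EZH2-/- replicates 1 and 2 had mean Y-linked signals of 6.66 and 6.81, against 3.64 to 4.08 on the other 7 arrays. These 2 arrays thus stood apart from the rest, and the labels give no sex. No Jak2VF or WT array had such signal, so what goes with it cannot be fully told apart from genotype. Jak2VF EZH2-/- arrays also had higher marker signal of T and NK cells (0.60 to 1.03 above the WT mean, against -0.06 to 0.11 in Jak2VF and -0.16 to 0.18 in WT) and of mast cells and basophils (0.97 to 1.57, against 0.51 to 1.10 in Jak2VF and -0.12 to 0.13 in WT). Jak2VF EZH2-/- replicate 3 had the highest mean of 13 immediate early and heat shock genes, 1.38 above the WT mean, and of the neutrophil markers, 1.44 above it. In the other groups the mean of these 13 genes was highest on Jak2VF replicate 2 (0.676) and WT replicate 2 (0.415). Their other arrays lay between -0.31 and 0.13. In bulk RNA, fewer cells of a type and less RNA per cell cannot be told apart.

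Most of the family gave a strong signal. The mean log2 signal over 9 arrays was 9 or above for 35 of the 56 genes (62.5%), against 3.32% of all named genes, and ranged from 9.43 for Rps25 to 12.81 for Rplp1. The other 21 lay between 5.28 for Rps15 and 8.32 for Rps10, and included Rps7, Rps14, Rps27, Rpl5, Rpl11, Rpl30 and Rpl34. A probe set's signal also depends on its probes, so these means describe the measurement and do not rank the messages.

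Ribosomal protein genes have many near-identical processed copies elsewhere in the genome, and the probe sets differed in where they appeared to lie. Probe sets of this array are numbered along the chromosomes, in that 98.9% of 23325 named probe sets lay among the numbers of genes of their own chromosome, judged from 10 neighbours on each side. Of the 35 genes with a mean of 9 or above, 17 were read from a probe set numbered on the gene's own chromosome and 18 from a probe set numbered elsewhere. All 21 genes below 9 were read from probe sets on their own chromosome. Over all 95 probe sets, 35 of 56 bright ones but 3 of 39 dim ones were numbered away from the gene, 33 of these 38 among genes of 1 other chromosome and 5 among genes of mixed chromosomes. Signals of Rpl7, Rpl29, Rpl35, Rps6, Rps19 and Rps24 were all read from such probe sets, so for them the gene and its copies cannot be told apart. Those of Rpl7, Rpl35 and Rps24 lay among genes of mixed chromosomes, so their numbers do not give a place. The same holds for Rpl4, counted as on its own chromosome from 7 of 18 neighbours. Rps12 had 6 probe sets with identical values on every array, Rpl23a 2 and Rps19 2.

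**Figure D1:**
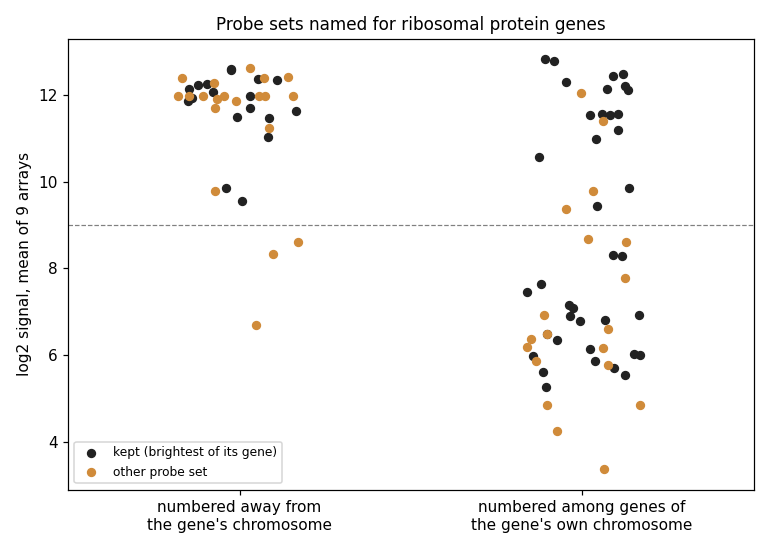
Each point is 1 of the 95 probe sets named for a ribosomal protein gene, with its mean log2 signal over 9 arrays on the vertical axis and its place by probe set number on the horizontal axis. The dashed line is at 9; of the probe sets numbered away from the gene's chromosome 35 lie above it and 3 below, and of those on the gene's own chromosome 21 lie above and 36 below.

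The start sites were searched for the TOP motif, which was not found for all members. The following 30 bases around the annotated start (15 on each side, RefSeq, GRCm38.p6) are shown for 9 of the genes whose values did not overlap between Jak2VF EZH2-/- and WT, since they carry the comparison described later, and for the steady gene Rps6. Capitals mark a C followed by at least 5 pyrimidines, the pattern counted here as TOP-like.
Rpl34 (chr3:130730323-130730352, minus strand): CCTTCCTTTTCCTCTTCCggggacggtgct
Rpl35 (chr2:39005117-39005146, minus strand): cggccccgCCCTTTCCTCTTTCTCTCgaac
Rpl7a (chr2:26910792-26910821, plus strand): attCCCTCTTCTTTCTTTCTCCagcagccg
Rpl14 (chr9:120571502-120571531, plus strand): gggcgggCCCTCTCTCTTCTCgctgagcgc
Rps12 (chr10:23787195-23787224, minus strand): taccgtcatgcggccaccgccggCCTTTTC
Rps24 (chr14:24490663-24490692, plus strand): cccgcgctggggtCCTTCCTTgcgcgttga
Rps7 (chr12:28635939-28635968, minus strand): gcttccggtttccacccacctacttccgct
Rps25 (chr9:44407699-44407728, plus strand): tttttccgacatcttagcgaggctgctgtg
Rpl26 (chr11:68901551-68901580, plus strand): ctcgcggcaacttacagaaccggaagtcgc
Rps6 (chr4:86857353-86857382, minus strand): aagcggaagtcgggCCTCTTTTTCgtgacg

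A TOP-like run was found for 25 of the 43 members with a promoter in the RefSeq table (58.1%), against 25.5% of 27025 genes; 13 members had no entry. It was present in 7 of 11 genes where Jak2VF EZH2-/- lay above WT without overlap and in 17 of 31 where the groups overlapped, and Rps24, the 1 gene lower without overlap, had it too. Rps7, Rps25, Rpl26 and Rpl41 were higher without overlap and had no such run at their annotated start. Rps19 and Rps24 have more than 1 annotated start and did not have the run at all of them. Within the 300 bases from 250 before to 50 after the start, the ETS core CGGAAG stood on either strand in 67.4% of the members, against 18.8% of all genes. The GC box GGGCGG (51.2% against 38.2%), the E-box CACGTG (9.30% against 8.09%) and TATAAA (9.30% against 15.7%) were also counted. A match is a description of the letters only. The 250 bases before the start of Rps6 are printed as an example of the ETS core, the motif held by the largest share of the members,, with its 3 ETS cores in capitals.
Rps6 (chr4:86857368-86857617, minus strand): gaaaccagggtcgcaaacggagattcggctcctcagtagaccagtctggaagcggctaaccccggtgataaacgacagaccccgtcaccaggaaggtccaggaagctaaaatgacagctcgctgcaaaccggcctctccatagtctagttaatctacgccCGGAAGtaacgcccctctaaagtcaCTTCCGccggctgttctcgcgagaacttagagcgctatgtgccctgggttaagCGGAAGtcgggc

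The family varied little from array to array. The median SD over all 9 arrays was 0.156 on the log2 scale, and for the median gene the highest array was 1.4 times the lowest. Within groups, the median residual SD was 0.149, against 0.220 over all named genes. Among members at 9 or above it was 0.0981, against 0.190 for the other 702 named genes at 9 or above. These 702 genes were not matched to the members in signal beyond that bound. The highest signal on any array was 13.64, and the part of the upper end of the scale in the low SD was not tested. The steadiest were Rps12 (SD 0.0494), Rps6 (0.0532), the substrate of the S6 kinases below mTOR, and Rpl23a (0.0580), which sits at the exit of the peptide tunnel. Rps6 had 12.36, 12.27 and 12.45 in Jak2VF EZH2-/- arrays, 12.40, 12.32 and 12.36 in Jak2VF arrays and 12.43, 12.36 and 12.36 in WT arrays. Its 3 groups overlapped fully. The most variable were Rpl30 (0.716), Rps7 (0.642) and Rps27 (0.640), all below 9, where the median SD was 0.247 against 0.117 for genes at 9 or above.

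Single arrays shifted many members together. A shift common to all members accounted for 14.1% of the sum of squares of their deviations, and differences between the 3 groups for 41.1%. These shares overlap, since a common shift can also differ between groups. Means of 3 groups take up part of the sum by construction, and the share over all genes was not computed. The 41.1% is therefore not the size of a genotype effect. Within its group, Jak2VF EZH2-/- replicate 3 was the highest array for 38 of the 56 genes, Jak2VF replicate 2 for 30 and WT replicate 2 for 35. The same 3 arrays had the highest mean of the immediate early and heat shock genes in their groups. They also had the highest mean of 19 cell cycle genes, 0.178, 0.69 and 0.325 above the WT mean in the same order. The part of these signals in the shifts was not tested. Over all 9 arrays, Jak2VF EZH2-/- replicate 3 was the highest for 20 genes, and WT replicate 1 was the lowest for 17. The median deviation of the members from the WT mean was 0.07, 0.04 and 0.14 on Jak2VF EZH2-/- arrays, 0.00, 0.10 and 0.00 on Jak2VF arrays and -0.05, 0.08 and -0.01 on WT arrays, so the groups overlapped. WT replicate 1 was also the highest array for 8 genes, Rpl4, Rpl7, Rpl23a, Rpl38, Rpl39, Rps13, Rps18 and Rps24, while it was the lowest for 17 others.

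**Figure D2:**
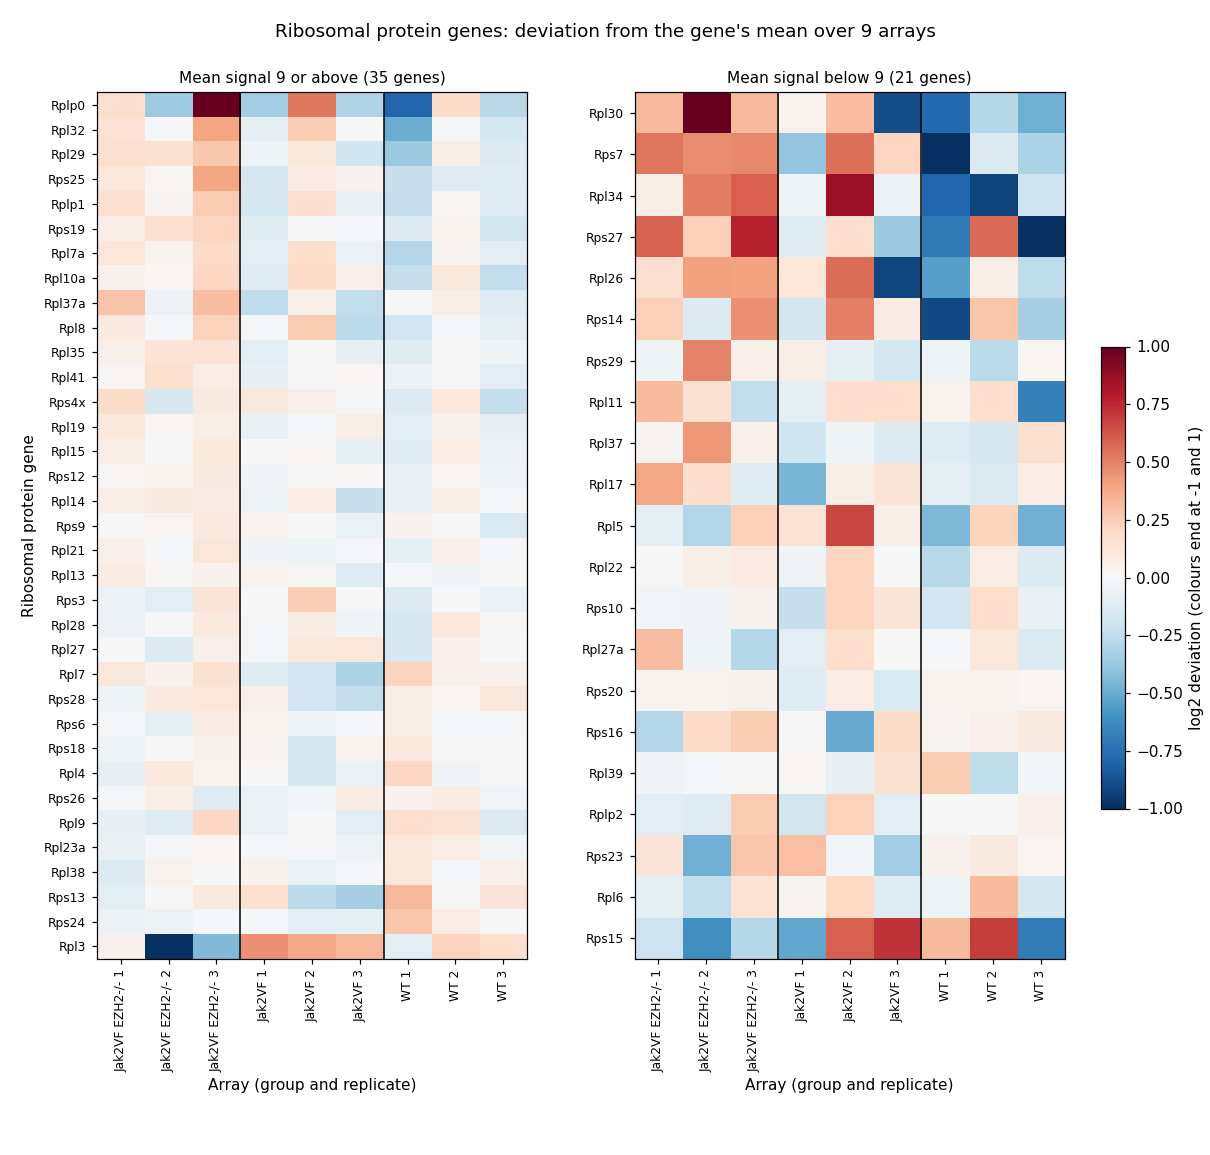
Each row is a ribosomal protein gene and each column an array, with Jak2VF EZH2-/- at the left, Jak2VF in the middle and WT at the right; colours give the log2 deviation from the gene's mean over 9 arrays and end at -1 and 1. Genes are ordered by the difference between Jak2VF EZH2-/- and WT, and most rows at 9 or above are pale, with a median SD of 0.117 against 0.247 below 9.

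The first question was whether activated JAK2 went with a change in the family. Between Jak2VF and WT no ribosomal protein gene passed (limma, Benjamini-Hochberg over 22180 genes, adjusted p under 0.05), and neither did any named gene (0%). At an unadjusted p under 0.05, 2 members were higher (2.85% of all genes) and 1 lower (1.81%), and ordinary least squares without moderation also passed 0 members. The median difference was 0.03, against 0.03 over all named genes, with 34 members positive and 22 negative (60.7% positive, 55.8% over all genes). The 3 arrays of Jak2VF lay above all 3 of WT for 2 members, Rpl3 and Rpl34 (3.54% of all genes), and below for 2, Rpl7 and Rps24 (2.57%), shares close to the background. The 95% interval lay within 1.5-fold either way for 42 of the 56 genes. Without WT replicate 2, 14 members lay above (14.7% of all genes), and without Jak2VF replicate 1 or replicate 3 the number was 6 each (12.0% and 6.21%); quantile normalization gave 5 (6.12%).

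The second question was what loss of EZH2 added to activated JAK2. Between Jak2VF EZH2-/- and Jak2VF again no ribosomal protein gene passed, where 10 of all named genes did (0.0451%; 7 higher, 0.0316%, and 3 lower, 0.0135%), and ordinary least squares passed none. The lowest adjusted p of a member was 0.417, for Rpl3. At an unadjusted p under 0.05, 2 members were higher (2.91% of all genes) and 1 lower (3.99%). The median difference was 0.08, against -0.04 over all genes, and 41 of 56 members were positive (73.2%), against 41.8% of all genes. Jak2VF EZH2-/- lay above Jak2VF without overlap for 9 members (16.1%), against 4.18% of all genes, and below for 1 (1.79%), against 6.94%. Among the 702 other named genes at 9 or above, 7.98% lay above and 21.1% below. The members above were Rps12, Rps19, Rps27, Rpl7, Rpl29, Rpl30, Rpl35, Rpl37 and Rpl41, by 0.06 (Rps12) to 0.88 (Rpl30), and the 1 below was Rpl3. The count of 9 was 1 after median centring of each array (5.26% of all genes), 5 with own-chromosome probe sets only (4.16%), and 14, 18 and 14 without Jak2VF replicate 1, Jak2VF replicate 2 or Jak2VF EZH2-/- replicate 2 (7.94%, 9.98% and 7.39%).

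The largest count was between Jak2VF EZH2-/- and WT, a comparison that changes both alleles and shares its arrays with the other comparisons. No ribosomal protein gene passed here either, where 5 of all named genes did (0.0225%; 4 higher, 0.018%, and 1 lower, 0.00451%), and ordinary least squares passed none. The lowest adjusted p of a member was 0.431, for Rpl34. At an unadjusted p under 0.05, 7 members were higher (4.54% of all genes) and 1 lower (4.06%). Jak2VF EZH2-/- lay above WT without overlap for 16 members (28.6%), against 6.28% of all genes, and below for 1 (1.79%), against 6.62%. Several of these separations were narrow. The closest arrays were 10.976 and 10.974 for Rpl8, 11.619 and 11.616 for Rpl14, and 12.449 and 12.445 for Rps12. They were 12.48 and 12.474 for Rpl13, 11.964 and 11.955 for Rpl7a, 12.834 and 12.825 for Rplp1, and 12.188 and 12.178 for Rpl32. Of the 35 members at 9 or above 12 lay above (34.3%), against 15.1% of the 702 other genes at that signal, and of the 21 dimmer members 4 did (19.0%). The median difference was 0.08, against -0.02 over all genes, with 38 of 56 members positive (67.9%, 46.5% over all genes). It was 0.14 for the large subunit, with 12 of 35 genes above, and 0.03 for the small subunit, with 4 of 21 above; the difference between the subunits was not tested.

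For 40 of the 56 genes the 95% interval of the difference between Jak2VF EZH2-/- and WT lay within 1.5-fold either way, and for 41 and 42 in the other comparisons. With Jak2VF EZH2-/- replicate 3 alone, the 1 array of that group without Y-linked signal, 37 members lay above WT (23.0% of all genes) and 30 above Jak2VF (18.3%). Without Jak2VF EZH2-/- replicate 3 the counts were 17 (9.43%) and 10 (7.03%), and without WT replicate 2, 25 lay above WT (16.1%). The marker and handling signals listed above also differed between these groups, and their part in the counts was not tested.

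**Figure D3:**
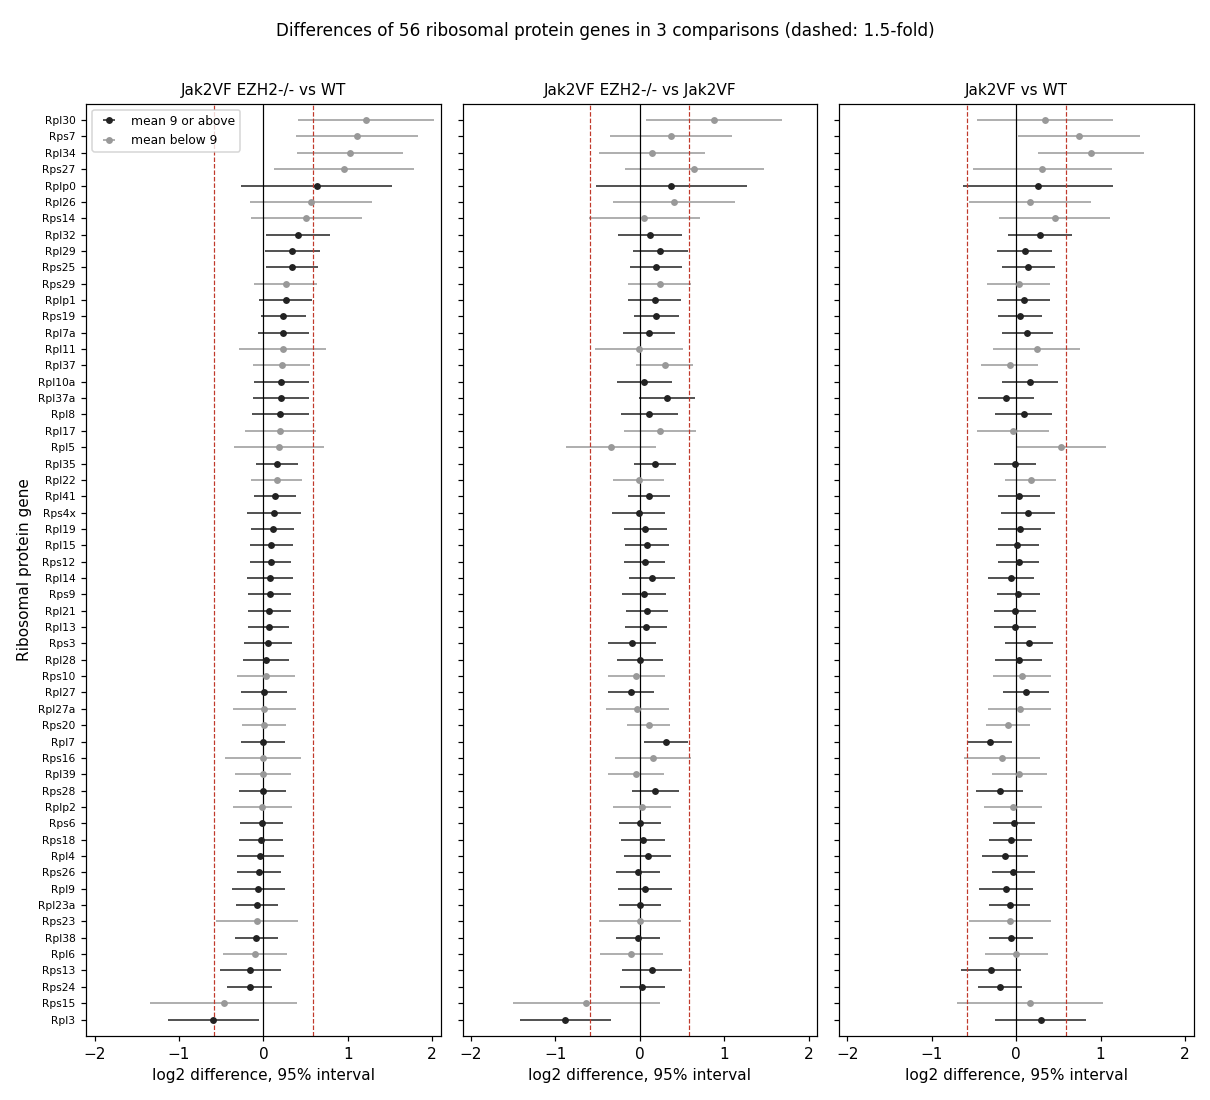
Points are log2 differences of the 56 genes and bars their 95% intervals from limma, for Jak2VF EZH2-/- against WT, Jak2VF EZH2-/- against Jak2VF and Jak2VF against WT, in the same gene order. Dashed lines mark 1.5-fold; 40, 41 and 42 intervals lie wholly between them, and the widest belong to Rplp0, at a mean of 9.55, and to Rps15 and Rps27, below 9.

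Across the 3 groups, few members separated completely. Jak2VF EZH2-/- lay above both other groups for 6 genes (10.7%), Rps12, Rps19, Rpl29, Rpl30, Rpl35 and Rpl41, against 2.15% of all named genes. Both mutant groups lay above WT for Rpl34 and below it for Rps24, patterns seen in 1.07% and 1.03% of all genes. Jak2VF alone lay above both others for Rpl3 and below both others for Rpl7, against 1.31% and 0.64%, where 1 gene is 1.79% of the family.

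In the small subunit, the largest difference was that of Rps7, whose free protein binds MDM2. It had 8.0, 7.94 and 7.95 in Jak2VF EZH2-/- arrays, 7.08, 8.02 and 7.68 in Jak2VF arrays and 6.08, 7.33 and 7.15 in WT arrays. All Jak2VF EZH2-/- arrays lay above all WT arrays, while Jak2VF overlapped both. The difference between Jak2VF EZH2-/- and WT was 1.11 ± 0.32 (SE, n = 3 each; 2.16-fold, limma adjusted p = 0.447), and without WT replicate 1 it was 0.725 (adjusted p = 0.885). That between Jak2VF and WT was 0.74 ± 0.32 (adjusted p = 0.924), and 0.35 without WT replicate 1.

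Rps27, a zinc finger protein of the small subunit, had 6.48, 6.12 and 6.66 in Jak2VF EZH2-/- arrays, 5.75, 6.05 and 5.51 in Jak2VF arrays and 5.18, 6.45 and 4.76 in WT arrays. Jak2VF EZH2-/- lay above Jak2VF without overlap, and WT spread across both. The difference from Jak2VF was 0.65 ± 0.37 (1.56-fold, limma adjusted p = 0.769). That from WT was 0.96 ± 0.37 (adjusted p = 0.539), 1.45 without WT replicate 2 (adjusted p = 0.0841, the lowest of any member under any alternative) and 0.60 without WT replicate 3 (adjusted p = 0.781).

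Rps19, the gene most often mutated in Diamond-Blackfan anaemia, had 11.76, 11.86 and 11.91 in Jak2VF EZH2-/- arrays, 11.58, 11.70 and 11.68 in Jak2VF arrays and 11.56, 11.73 and 11.52 in WT arrays. The Jak2VF EZH2-/- arrays were the top 3, by 0.19 ± 0.12 over Jak2VF and 0.24 ± 0.12 over WT (limma adjusted p = 0.780 and 0.615). The probe set numbered on the gene's own chromosome, with a mean of 6.19, gave -0.02 and -0.05 for the same comparisons, so the pattern was seen only with the bright probe set. Rps12, which takes part in cell competition in Drosophila, had 12.45, 12.47 and 12.53 in Jak2VF EZH2-/- arrays, 12.40, 12.43 and 12.44 in Jak2VF arrays and 12.36, 12.44 and 12.38 in WT arrays. The Jak2VF EZH2-/- arrays lay above both other groups, which overlapped with each other, by 0.06 over Jak2VF and 0.09 over WT (0.033 over Jak2VF without Jak2VF EZH2-/- replicate 3).

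Rps25, needed for translation from several viral internal ribosome entry sites, had 9.54, 9.45 and 9.83 in Jak2VF EZH2-/- arrays, 9.26, 9.51 and 9.47 in Jak2VF arrays and 9.20, 9.30 and 9.31 in WT arrays. Jak2VF EZH2-/- lay above WT without overlap, by 0.34 ± 0.14 (limma adjusted p = 0.563), and by 0.56 with replicate 3 as its only array.

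Rps24, another Diamond-Blackfan anaemia gene, ran the other way, with 11.39, 11.41 and 11.43 in Jak2VF EZH2-/- arrays, 11.43, 11.35 and 11.36 in Jak2VF arrays and 11.73, 11.53 and 11.45 in WT arrays. All mutant arrays lay below all WT arrays. The difference from WT was -0.16 ± 0.12 in Jak2VF EZH2-/- and -0.19 ± 0.12 in Jak2VF (limma adjusted p = 0.724 and 0.924). Without WT replicate 1, its highest array, these were -0.08 and -0.11. A second bright probe set gave -0.21 and -0.41, and the dimmer one on the gene's own chromosome -0.12 and 0.00.

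Among the other named genes of the small subunit no groups separated with the probe sets used. Rps14, the gene of the 5q- syndrome, had 6.28, 5.90 and 6.50 in Jak2VF EZH2-/- arrays, 5.85, 6.54 and 6.12 in Jak2VF arrays and 5.13, 6.31 and 5.70 in WT arrays. It differed from WT by 0.51 ± 0.29 in Jak2VF EZH2-/- (limma adjusted p = 0.664) and by 0.46 ± 0.29 in Jak2VF, and without WT replicate 1, its lowest array, by 0.22 and 0.17; without WT replicate 2, its highest, they were 0.81 and 0.75. Rps15, a protein of the small subunit's head, had 5.08, 4.67 and 5.0 in Jak2VF EZH2-/- arrays, 4.76, 5.88 and 6.01 in Jak2VF arrays and 5.6, 5.98 and 4.58 in WT arrays. The difference of -0.63 ± 0.39 from Jak2VF did not pass (adjusted p = 0.780; -1.03 without Jak2VF replicate 1 and -0.41 without replicate 3), and 1 low array in each of the other groups lay within the Jak2VF EZH2-/- range or below it.

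Rps13 and Rps28 were lower in Jak2VF than in WT by 0.30 and 0.19 in the mean, with overlapping arrays (limma adjusted p = 0.924 each). The dim probe set of Rps28 on the gene's own chromosome gave 0.12, the other direction, and Rps13 gave -0.45 without Jak2VF replicate 1. Rps26, which lines the path of the message as it leaves the ribosome and is another Diamond-Blackfan anaemia gene, had 11.62, 11.70 and 11.50 in Jak2VF EZH2-/- arrays, 11.57, 11.61 and 11.71 in Jak2VF arrays and 11.67, 11.71 and 11.60 in WT arrays. Rps3, which lies at the message's entry, differed between Jak2VF EZH2-/- and Jak2VF by -0.09 ± 0.13 (adjusted p = 0.919), and by -0.01 without Jak2VF replicate 2. Neither gene separated any groups with the probe set used. The Rps26 probe set numbered on the gene's own chromosome, with a mean of 9.78, did separate Jak2VF EZH2-/- from WT. It had 9.88, 10.09 and 10.02 in Jak2VF EZH2-/- arrays and 9.65, 9.76 and 9.74 in WT arrays, a difference of 0.28. Against Jak2VF it gave 0.38, with overlapping arrays.

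In the large subunit, Rpl34 had 7.23, 7.68 and 7.77 in Jak2VF EZH2-/- arrays, 7.12, 8.02 and 7.12 in Jak2VF arrays and 6.38, 6.25 and 6.96 in WT arrays. It was the 1 member for which every mutant array lay above every WT array. The difference from WT was 1.03 ± 0.28 in Jak2VF EZH2-/- (2.04-fold, limma adjusted p = 0.431) and 0.89 ± 0.28 in Jak2VF (1.85-fold, adjusted p = 0.924). Without Jak2VF replicate 2, its highest array, the Jak2VF difference was 0.59.

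Rpl30, whose yeast counterpart binds and represses its own message, had 6.31, 7.44 and 6.31 in Jak2VF EZH2-/- arrays, 6.03, 6.30 and 5.11 in Jak2VF arrays and 5.21, 5.70 and 5.50 in WT arrays. All Jak2VF EZH2-/- arrays lay above all others, with replicate 2 far above the other pair. The differences were 0.88 ± 0.36 from Jak2VF (1.84-fold, limma adjusted p = 0.687) and 1.21 ± 0.36 from WT (2.32-fold, adjusted p = 0.457). The difference from Jak2VF was 0.50 without that replicate and 0.52 without Jak2VF replicate 3.

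Rpl3, which reaches towards the peptidyl transferase centre, had the largest negative difference in the mean. It had 9.90, 8.79 and 9.41 in Jak2VF EZH2-/- arrays, 10.31, 10.25 and 10.19 in Jak2VF arrays and 9.75, 10.09 and 10.03 in WT arrays. Jak2VF arrays lay above all others, and the Jak2VF EZH2-/- arrays were spread widely. The difference between Jak2VF EZH2-/- and Jak2VF was -0.88 ± 0.24 (limma adjusted p = 0.417), that between Jak2VF EZH2-/- and WT -0.59 ± 0.24 (adjusted p = 0.559, and -0.30 without Jak2VF EZH2-/- replicate 2). The gene's other probe sets gave 0.30 and 0.08 against Jak2VF, the sign of neither matching the kept one, and the mean over all 3 gave -0.17.

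Rpl7 had 11.12, 11.06 and 11.17 in Jak2VF EZH2-/- arrays, 10.89, 10.82 and 10.70 in Jak2VF arrays and 11.24, 11.07 and 11.06 in WT arrays. Jak2VF was the lowest group for this large subunit gene, without overlap with either of the others. It lay 0.31 ± 0.12 below WT (a difference of -0.31, limma adjusted p = 0.924), and Jak2VF EZH2-/- lay 0.31 ± 0.12 above Jak2VF (adjusted p = 0.642). The probe set numbered on the gene's own chromosome had a mean of 4.87 and gave 0.23 and -0.14 for these differences.

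Rpl29, whose loss in mice leaves them viable but small, had 11.65, 11.64 and 11.76 in Jak2VF EZH2-/- arrays, 11.43, 11.60 and 11.28 in Jak2VF arrays and 11.12, 11.54 and 11.35 in WT arrays. The Jak2VF EZH2-/- arrays were the top 3, 0.24 ± 0.15 over Jak2VF and 0.34 ± 0.15 over WT (limma adjusted p = 0.776 and 0.569). Its dimmer probe set on the gene's own chromosome gave 0.19 and 0.61, the same direction.

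Rpl32 had 12.34, 12.19 and 12.59 in Jak2VF EZH2-/- arrays, 12.11, 12.45 and 12.20 in Jak2VF arrays and 11.70, 12.18 and 12.02 in WT arrays. Jak2VF EZH2-/- lay above WT by 0.41 ± 0.17 (limma adjusted p = 0.566; 0.62 with replicate 3 as its only array), the closest arrays being 12.19 and 12.18. Rpl37, a zinc-binding protein of the large subunit, had 6.81, 7.22 and 6.83 in Jak2VF EZH2-/- arrays, 6.58, 6.74 and 6.65 in Jak2VF arrays and 6.65, 6.61 and 6.94 in WT arrays. It lay above Jak2VF by 0.29 ± 0.15 (adjusted p = 0.744), or by 0.16 without Jak2VF EZH2-/- replicate 2, and overlapped with WT.

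Rpl35, at the exit of the peptide tunnel where the signal recognition particle docks, had 12.27, 12.36 and 12.37 in Jak2VF EZH2-/- arrays, 12.12, 12.22 and 12.14 in Jak2VF arrays and 12.10, 12.24 and 12.18 in WT arrays. Rpl41, the shortest ribosomal protein, had 12.78, 12.92 and 12.84 in Jak2VF EZH2-/- arrays, 12.68, 12.76 and 12.78 in Jak2VF arrays and 12.71, 12.76 and 12.66 in WT arrays. Both had Jak2VF EZH2-/- on top by differences between 0.11 and 0.18, and neither passed. The probe set of Rpl35 on the gene's own chromosome, with a mean of 4.26, gave -0.20 against Jak2VF and -0.02 against WT, and the other one, numbered elsewhere, gave 0.37 and 0.47. For Rpl41 the order between replicate 1 of Jak2VF EZH2-/- and replicate 3 of Jak2VF rested on values that are equal at 2 decimals.

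Rpl5 and Rpl11, which form the 5S ribonucleoprotein and bind MDM2, did not separate any groups. Rpl5 had 6.06, 5.86 and 6.39 in Jak2VF EZH2-/- arrays, 6.30, 6.82 and 6.22 in Jak2VF arrays and 5.71, 6.38 and 5.68 in WT arrays. It was 0.53 ± 0.24 higher in Jak2VF than in WT (limma adjusted p = 0.924), 0.34 without Jak2VF replicate 2, and differed between Jak2VF EZH2-/- and Jak2VF by -0.34 ± 0.24 (adjusted p = 0.817; -0.15 without Jak2VF replicate 2). Rpl11 had 6.82, 6.65 and 6.26 in Jak2VF EZH2-/- arrays, 6.41, 6.67 and 6.68 in Jak2VF arrays and 6.53, 6.67 and 5.83 in WT arrays.

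Rpl22, needed for the development of αβ T cells in mice, had 8.29, 8.36 and 8.38 in Jak2VF EZH2-/- arrays, 8.26, 8.52 and 8.30 in Jak2VF arrays and 8.02, 8.37 and 8.16 in WT arrays. Rpl38, which in mice promotes the translation of Hox messages, had 11.98, 12.16 and 12.11 in Jak2VF EZH2-/- arrays, 12.16, 12.05 and 12.10 in Jak2VF arrays and 12.23, 12.10 and 12.17 in WT arrays. The groups of both genes overlapped in all 3 comparisons. Rpl4, Rpl6, Rpl9, Rpl23a and Rpl27 likewise overlapped in all comparisons, and their differences, named for their low p among negative values, lay between -0.13 and -0.08.

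The stalk proteins recruit the elongation factors to the ribosome. Rplp0, the base of the stalk, had 9.73, 9.19 and 10.74 in Jak2VF EZH2-/- arrays, 9.21, 10.08 and 9.25 in Jak2VF arrays and 8.76, 9.73 and 9.28 in WT arrays. Its highest array in each group was replicate 3 of Jak2VF EZH2-/-, replicate 2 of Jak2VF and replicate 2 of WT, the arrays that were highest for most members. The difference between Jak2VF EZH2-/- and WT was 0.63 ± 0.40 (limma adjusted p = 0.686). It was 0.20 without Jak2VF EZH2-/- replicate 3, 0.98 without replicate 2, 1.49 with replicate 3 alone and 0.38 without WT replicate 1, and the probe set on the gene's own chromosome gave 0.24. Rplp1 lay above WT without overlap by 0.26 ± 0.14 (adjusted p = 0.633), with 12.97, 12.83 and 13.07 in Jak2VF EZH2-/- arrays, 12.63, 12.97 and 12.74 in Jak2VF arrays and 12.57, 12.82 and 12.68 in WT arrays. The other probe set of Rplp1, with a mean of 8.32 and numbered away from the gene, gave -0.16 for this difference, the other direction. Rplp2, at a mean of 5.63, differed from WT by -0.01 ± 0.15 in Jak2VF EZH2-/-.

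**Figure D4:**
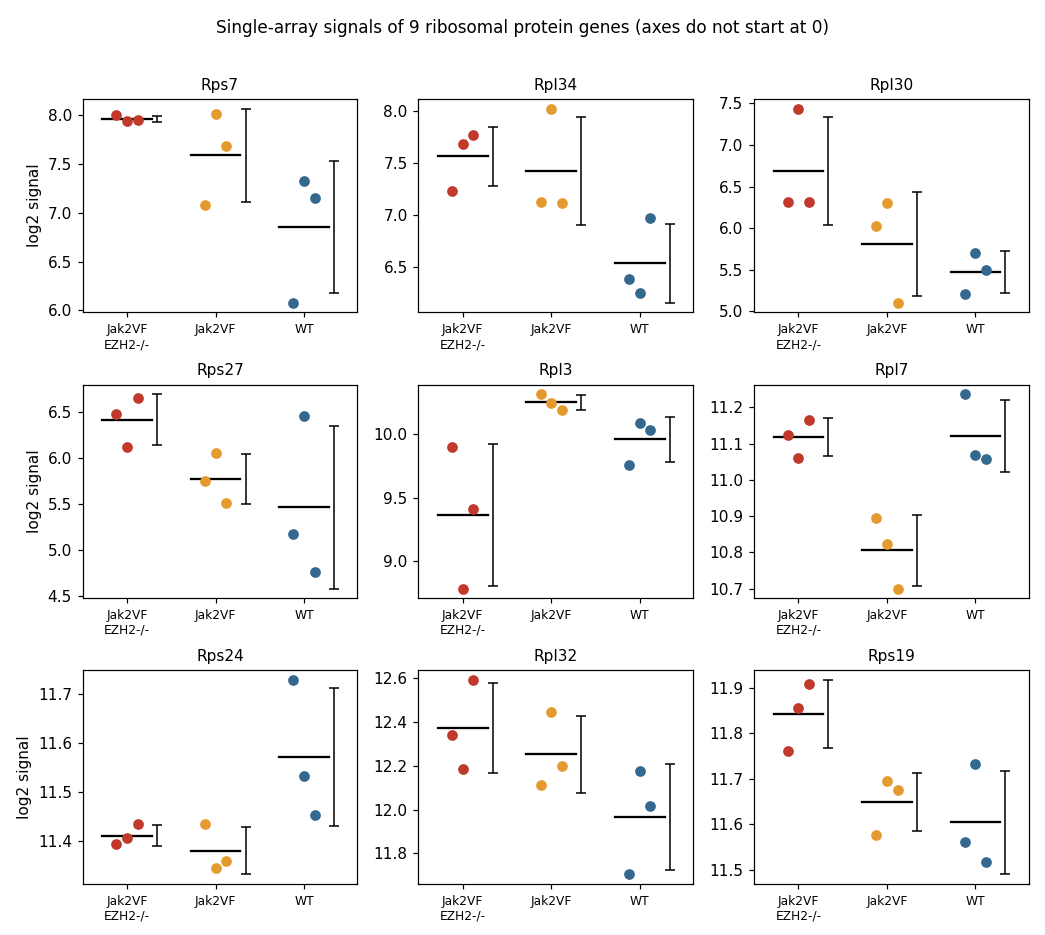
Points are log2 signals of single arrays for 9 genes, with Jak2VF EZH2-/- at the left, Jak2VF in the middle and WT at the right; horizontal bars are means and vertical bars the SD of 3 arrays. Rps7, Rpl34 and Rpl30 have all Jak2VF EZH2-/- points above all WT points, Rpl3 has Jak2VF on top, Rpl7 has Jak2VF at the bottom and Rps24 has WT on top.

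Different probe sets of a gene often disagreed in sign. Of the 22 genes with probe sets of distinct values, all probe sets had the same sign in 10 genes for Jak2VF against WT, in 11 for Jak2VF EZH2-/- against Jak2VF and in 10 for Jak2VF EZH2-/- against WT. The probe sets of a gene differed by over 0.5 in 1, 3 and 5 genes. With the mean over all probe sets in place of the brightest, Jak2VF EZH2-/- lay above WT without overlap for 14 members (6.26% of all genes), and with own-chromosome probe sets alone also for 14 (6.28%).

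Genes mutated in human ribosomal anaemias gave differences of both signs. Of the 9 measured small subunit genes on that list, Jak2VF EZH2-/- against WT gave 6 positive and 3 negative differences with a median of 0.24. Of the 5 measured large subunit genes 5 were positive with a median of 0.19. Over all named genes 46.5% were positive in this comparison. Against Jak2VF the medians were 0.18 and -0.01, and between Jak2VF and WT 0.04 and 0.17, beside -0.02, -0.04 and 0.03 over all genes. None of them passed in any comparison. In Jak2VF EZH2-/-, Rps7 and Rps19 lay above WT without overlap (22.2% of the small subunit list), as did Rpl26 (20% of the large subunit list). The share of all genes was 6.28%. Rps24 lay below (11.1% of the small subunit list), against 6.62% of all genes. The limits given above for Rps19 and Rps24 hold here too. The p53 pathway list, 12 of 14 genes measured, had medians of 0.11, 0.00 and 0.04 in the same order, and none passed.

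Genes that build or control ribosomes were listed for comparison, and none of them passed in any of the 3 comparisons. Ribosome biogenesis factors (32 of 34 measured) had a median of 0.15 in Jak2VF against WT with 31 of 32 positive. It was -0.07 in Jak2VF EZH2-/- against Jak2VF with 10 positive, and 0.16 in Jak2VF EZH2-/- against WT with 21 positive. Of all named genes 55.8%, 41.8% and 46.5% were positive in the same order. RNA polymerase I, which transcribes ribosomal RNA, had medians of 0.14, 0.00 and 0.12 over 13 genes. Translation control genes such as Mtor, Larp1 and Myc had 0.20, -0.08 and 0.03 over 13. Elongation factors and other TOP messages had 0.07, -0.08 and -0.02 over 16; the difference from the ribosomal protein genes was not tested. The biogenesis median was 0.42 above the WT mean on Jak2VF replicate 2, against 0.06 and 0.09 on the other Jak2VF arrays, and 0.25 on WT replicate 2.

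The 2 ribosomal proteins outside the naming rule that were measured, Rpsa and Fau, both had differences of 0.13 between Jak2VF EZH2-/- and WT. The 7 measured paralogues, such as Rps27l, had a median of 0.07 and the 15 named pseudogenes one of -0.10 in this comparison. Between Jak2VF and WT 14 of the 15 pseudogenes were negative (median -0.10), where 34 of the 56 genes and 55.8% of all named genes were positive. Only 1 pseudogene lay below WT without overlap (6.67%, against 2.57% of all genes). The difference between pseudogenes and genes was not tested. None of these passed.

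**Figure D5:**
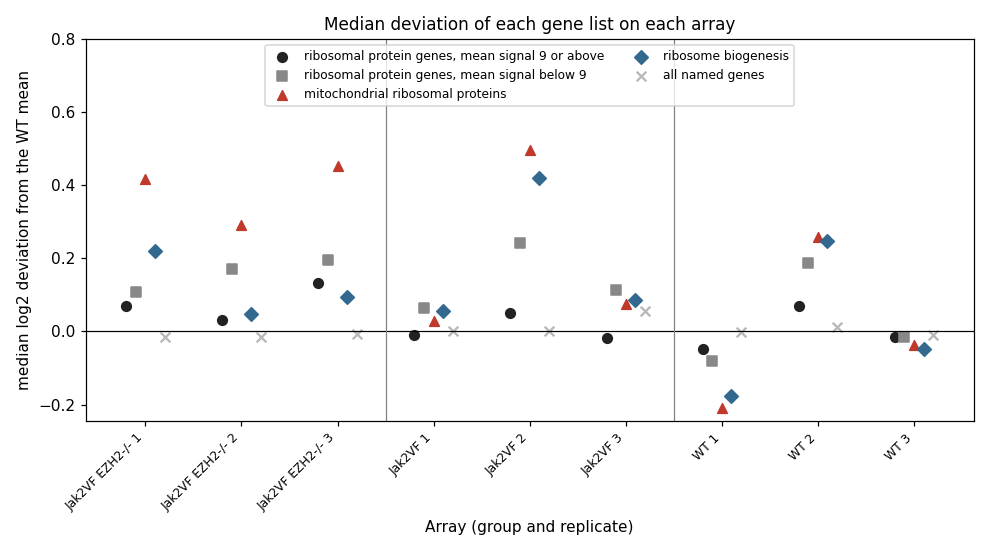
Each point is the median log2 deviation from the WT mean, over the genes of a list, on 1 array, with Jak2VF EZH2-/- arrays at the left, Jak2VF in the middle and WT at the right. The ribosomal protein genes at 9 or above stay between -0.05 and 0.13 on all arrays, while ribosome biogenesis genes reach 0.42 on Jak2VF replicate 2 and mitochondrial ribosomal proteins lie between 0.29 and 0.45 on the 3 Jak2VF EZH2-/- arrays.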

How the data were processed

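RNA of 9 sorted stem cell samples, 3 per genotype, was amplified from 10 ng with the NuGEN Ovation Pico WTA V2 system and measured on Affymetrix arrays, per the labels' protocols. The deposited values are log2 signals of 41345 probe sets, and the submitters' processing notes name Partek 6.6; background correction and normalization are steps not given in the sources used here, and no further normalization was applied. Of the probe sets, 23521 had 1 gene symbol, 1814 several and 16010 none in the platform annotation. All 22180 named genes were fitted on all 9 arrays with lmFit and eBayes of limma 3.58.1 (R 4.3.3; 6 residual and 3.83 prior degrees of freedom), with Benjamini-Hochberg adjustment within each comparison and a threshold of 0.05. The number of arrays limits the precision, and p-values measure the spread between these samples only. No overlap means that all 3 values of 1 group lie beyond all 3 of the other. Named were, per comparison and direction, the 6 members with the smallest p, those without overlap first, and the 3 most and 3 least variable. Also named were 12 genes with known roles, of which Rpl10 and Rps27a were not measured by the rule. Rpl35, Rpl41, Rplp1 and Rplp2 were added after their values were seen. Array values were not printed for Rpl4, Rpl6, Rpl9, Rpl23a, Rpl27, Rplp2, Rps3, Rps13 and Rps28, which have only differences. The members and lists were chosen with earlier results of these data known. Promoters came from RefSeq (GRCm38.p6), and their chromosomes from the same annotation. The fit was tested on simulated data. Alternatives covered variance moderation, scaling, filtering, probe set choice, the replicate number as a block, array weights, Y-linked signal and each array left out.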

Additional observations from a re-analysis of the deposited data

How the results depend on the processing

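In every alternative 0 ribosomal protein genes passed in all 3 comparisons, and all median differences moved by less than the 0.063 SD between arrays of a group, their range on leaving out 1 array being -0.004 to 0.079 for Jak2VF against WT, 0.049 to 0.091 for Jak2VF EZH2-/- against Jak2VF and 0.068 to 0.123 for Jak2VF EZH2-/- against WT. The count of all genes passing between Jak2VF EZH2-/- and Jak2VF, 10, was 0 with ordinary least squares, with only the 2 groups, with the replicate block and without both arrays with Y-linked signal (1 array left, assumed to vary like the other groups), 4 after median centring, 19 without the dimmer genes, 23 at an adjusted p under 0.1, and 0 to 17 on leaving out 1 array. Between Jak2VF EZH2-/- and WT, 5, it was 0 with ordinary least squares, with only the 2 groups, with the replicate block and without both Y-linked arrays, 3 after median centring, 10 with an intensity trend, 14 with array weights, 13 at the looser threshold, and 0 to 14 on leaving out 1 array. Members above without overlap numbered 2 in Jak2VF against WT (3.54% of all genes), 5 with quantile normalization (6.12%), 1 among members at 9 or above and 2 to 14 on leaving out 1 array (up to 14.7%). They numbered 9 in Jak2VF EZH2-/- against Jak2VF (4.18% of all genes), 1 after median centring (5.26%), 5 with own-chromosome probe sets (4.16%), 6 with the mean over probe sets (4.16%), 30 without both Y-linked arrays (18.3%) and 9 to 18 on leaving out 1 array (up to 9.98%); and 16 in Jak2VF EZH2-/- against WT (6.28% of all genes), 12 after median centring (8.71%), 14 with quantile normalization (8.72%), 37 without both Y-linked arrays (23.0%) and 16 to 25 on leaving out 1 array (up to 16.1%). Fewer arrays make separation easier by construction; the cause of the other moves was not tested. Named members turned sign in 14 of 496, 35 of 493 and 12 of 472 recomputed values. Same-numbered replicates correlated between -0.231 and 0.484 in their deviations, the highest being replicate 2 of Jak2VF and WT. Pairs with different numbers were not compared, so whether the numbers pair the samples was not tested. The replicate block left 0 members passing.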

Other observations

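The proteins of the mitochondrial ribosome, which translates the messages of the mitochondrial genome, are encoded by a separate family, of which 71 genes were measured. Between Jak2VF EZH2-/- and WT their median difference was 0.41, with 66 of 71 positive (93%, against 46.5% of all genes). Without overlap, 31 lay above WT (43.7%, against 6.28% of all genes) and 1 below (1.41%, against 6.62%). Between Jak2VF EZH2-/- and Jak2VF the median was 0.19 with 57 positive (80.3%, against 41.8% of all genes). Without overlap, 11 lay above Jak2VF (15.5%, against 4.18% of all genes) and 2 below (2.82%, against 6.94%). Between Jak2VF and WT the median was 0.19 with 61 positive (85.9%, against 55.8% of all genes). Without overlap, 2 lay above WT (2.82%, against 3.54% of all genes). None passed over all genes, the lowest adjusted p being 0.235, for Mrpl52. Mrpl52 had 10.58, 10.47 and 10.85 in Jak2VF EZH2-/- arrays, 9.67, 10.18 and 9.97 in Jak2VF arrays and 9.52, 9.98 and 9.68 in WT arrays, and its Jak2VF EZH2-/- values lay above all others. Mrpl28 had 8.0, 7.95 and 8.11 in Jak2VF EZH2-/- arrays, 6.87, 7.91 and 7.19 in Jak2VF arrays and 6.54, 7.27 and 6.55 in WT arrays, a difference of 1.23 ± 0.27 from WT (SE, n = 3 each; limma adjusted p = 0.278). On Jak2VF replicate 2 the family's median lay 0.49 above the WT mean, as high as on the Jak2VF EZH2-/- arrays (0.42, 0.29 and 0.45), against 0.03 and 0.07 on the other Jak2VF arrays. The cytosolic genes at 9 or above lay 0.07, 0.03 and 0.13 above it on the Jak2VF EZH2-/- arrays. The part of the marker and handling signals in these values was not tested.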
